A study of Homo sapiens with 6 samples.

Results

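The EGR factors EGR1, EGR2, EGR3 and EGR4 are zinc finger transcription factors, and NAB1 and NAB2 are the corepressors that bind them. These 6 genes were taken by symbol from the 36458 symbols of the deposited count table. They were chosen by family name with the β-alanine contrast already in view, that is on their CPM (counts scaled to the TMM-adjusted library total) in the 3 β-alanine libraries against the 3 control libraries. Differences between the groups are therefore given as a description, without p-values. Of the 6, all but EGR4 passed the filter on low counts that left 17331 genes for testing.

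The libraries came from the established human line DMS114, derived from small cell lung cancer, cultured with 2.5 mM β-alanine for 48 h or with vehicle alone. β-alanine is a beta amino acid that ribosomes do not use. Each condition had 3 libraries of polyadenylated RNA, and all values rest on this single line. Nothing in the labels says that these were separate cultures, so p-values cover no more than the spread among these samples, which may be technical. Totals ran from 14433801 counts in β-alanine library 1 to 32909568 in β-alanine library 3. Within a group, pairs of libraries differed beyond sampling noise (chi-square per gene 1.97 to 4.86). In the library totals a lower share of expressing cells and less RNA per cell cannot be told apart.

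As a check of the labelled cell type, the neuroendocrine factor INSM1 stayed at or below 0.318 CPM in every library, while YAP1, the marker of another small cell lung cancer subtype, lay between 119 and 133 CPM. The neuroendocrine secretory markers SYP and CHGA were measured at 56.2 to 89.6 and 17.5 to 31.4 CPM over both groups. The neuroendocrine list summed to 124 to 133 CPM after β-alanine and 94.3 to 98.3 CPM in controls. Of its 5 tested genes, 2 were called higher and 1 lower in edgeR's quasi-likelihood test, so these markers also differed by treatment. Summed endothelial, leukocyte and Schwann cell markers did not exceed 0.757 CPM in any library. The fibroblast list summed to 908 to 1009 CPM after β-alanine and 1140 to 1184 CPM in controls, most of it COL3A1, with COL1A2 at or below 0.162 CPM. Of its 5 tested genes, 3 fell and 1 rose in edgeR's quasi-likelihood test, where 13.8% of all tested genes fell and 14.1% rose. The part of these markers in the EGR values was not tested.

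EGR genes are immediate-early genes. Growth factors, depolarisation and stress activate ERK and other kinases, these act on the serum response factor SRF with its ETS partners and on CREB at the EGR promoters, and the EGR proteins then bind GC-rich sites in their target genes through their zinc fingers. EGR1 is known from growth control and memory, EGR2 from Schwann cell myelination and lymphocyte anergy, EGR3 from muscle spindles and lymphocytes, and EGR4 from neurons and germ cells. NAB1 and NAB2 bind EGR proteins and repress their activity, and NAB2 is itself a known EGR target, which forms a feedback loop.

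Promoter sequences are shown for letters that match the motifs of SRF, CREB and EGR factors. RefSeq windows on GRCh38.p14, from 250 bases before to 50 after an annotated start, were available for 5 of the 6 genes (all but EGR3), among 35116 windows in all. They were searched on both strands for the CArG box, the site of SRF, for the CREB core site TGACGT, and for the EGR motifs GCGTGGGCG and GCGGGGGCG. The upstream parts of the EGR1 window (chr5:138465229-138465478, plus strand), of the EGR2 window with matches (chr10:62816367-62816616, minus strand) and of the first NAB1 window (chr2:190648645-190648894, plus strand) follow in the direction of the gene. Capitals mark CArG boxes and CREB core sites in the EGR genes and EGR motifs in NAB1.
EGR1: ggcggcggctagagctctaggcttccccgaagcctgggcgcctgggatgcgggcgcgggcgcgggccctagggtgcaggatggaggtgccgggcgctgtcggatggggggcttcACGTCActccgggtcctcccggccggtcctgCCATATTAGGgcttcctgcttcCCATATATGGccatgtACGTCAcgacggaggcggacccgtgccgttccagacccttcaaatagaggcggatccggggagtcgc
EGR2: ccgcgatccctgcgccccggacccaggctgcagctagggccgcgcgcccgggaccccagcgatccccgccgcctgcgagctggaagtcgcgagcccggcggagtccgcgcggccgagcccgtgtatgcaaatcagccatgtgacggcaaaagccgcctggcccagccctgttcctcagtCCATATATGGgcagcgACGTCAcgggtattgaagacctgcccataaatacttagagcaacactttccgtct
NAB1: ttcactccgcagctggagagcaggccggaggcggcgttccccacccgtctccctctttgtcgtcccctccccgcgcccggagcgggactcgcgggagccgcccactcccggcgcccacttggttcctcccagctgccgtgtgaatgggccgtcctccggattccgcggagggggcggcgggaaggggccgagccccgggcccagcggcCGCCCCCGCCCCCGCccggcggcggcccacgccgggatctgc

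EGR1 held 2 CArG boxes, from base -105 to -96 and from base -83 to -74 counted from the annotated start, and 2 CREB core sites, from base -136 to -131 and from base -67 to -62. EGR2 held 1 CArG box (base -71 to -62) and 1 CREB core site (base -55 to -50) in 1 of its 3 windows. The EGR4 window held 2 CREB core sites and no CArG box. Over all windows, 1.29% held a CArG box, 0.0313% held 2 or more, and 7.98% held a CREB core site. The NAB windows held no CArG box, and all but the most downstream NAB1 window held EGR motifs. NAB1 had 2 overlapping copies on the opposite strand upstream of its first start (base -42 to -28) and 1 copy downstream of it (base 14 to 22), and NAB2 had 1 copy (base -62 to -54), against 5.77% of all windows with such a motif. The remaining sites are shown with 10 bases on each side, with the match in capitals, from chr2:73293711-73293736 and chr2:73293643-73293668 (EGR4, minus strand), chr2:190648898-190648926 (NAB1, plus strand) and chr12:57089042-57089070 (NAB2, plus strand).
EGR4 first site: gacaacaacaACGTCAcagctcgagc
EGR4 second site: ttgggcatttACGTCAcggcggcagg
NAB1 downstream site: actcggccgcGCGTGGGCGggagccggag
NAB2 site: tgtgcgtcctGCGGGGGCGgaggcgcgga

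GENCODE release 29 annotates the second EGR4 site, the downstream NAB1 site and the NAB2 site as exonic. A match describes the letters of a window and was not tested as a bound site. The CArG and CREB letters were found in EGR promoters and the EGR motifs in NAB promoters, with 1 CREB core site in the most downstream of the 3 NAB1 windows as the exception among these 5 genes.

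EGR1 was the most abundant of the 4 factors and the one with the widest gap between groups among the 5 tested genes. The gene lies on chromosome 5 from 138465479 to 138469303 (RefSeq, GRCh38). Its level was 24.8, 55.2 and 47.4 CPM in β-alanine libraries 1, 2 and 3, and 8.43, 9.10 and 7.75 CPM in control libraries 1, 2 and 3. All 3 treated libraries were above all 3 controls, with library 1 the lowest of the treated ones. The means were 42.5 ± 15.8 and 8.43 ± 0.673 CPM (SD, n = 3 per group), and the fitted log2 fold change was 2.37 ± 0.38 (SE). Ranked by fitted log2 fold change from the highest, EGR1 stood at place 6 of 17331 genes.

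EGR3, on chromosome 8 from 22687659 to 22693480, was expressed at a far lower level and also separated the groups. It had 16, 37 and 46 counts in β-alanine libraries 1, 2 and 3, or 1.11, 1.35 and 1.38 CPM. Control libraries 1, 2 and 3 had 9, 7 and 9 counts, or 0.487, 0.318 and 0.459 CPM. The treated libraries lay close together and above every control. The means were 1.28 ± 0.145 and 0.421 ± 0.0902 CPM (SD, n = 3 per group), with a log2 fold change of 1.64 ± 0.31 (SE) at place 18 of the ranking.

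EGR2, on chromosome 10 from 62811996 to 62819167, did not separate the groups. Its counts were 7, 30 and 34 after β-alanine and 6, 8 and 14 in controls. In CPM these were 0.487, 1.09 and 1.02 in β-alanine libraries 1, 2 and 3, against 0.324, 0.364 and 0.714 in control libraries 1, 2 and 3. β-alanine library 1 lay below control library 3, while libraries 2 and 3 lay above all controls. The log2 fold change was 0.99 ± 0.37 (SE), from 0.467 ± 0.214 to 0.867 ± 0.331 CPM (SD, n = 3 per group).

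EGR4, on chromosome 2 from 73290929 to 73293548, was counted in the β-alanine libraries and in no control library. It had 2, 28 and 18 counts in β-alanine libraries 1, 2 and 3, and 0 in each control library. In CPM the treated libraries stood at 0.139, 1.02 and 0.539, so most of its signal came from libraries 2 and 3. Pooled over the group, the treated level was 0.639 CPM (exact 95% Poisson interval 0.471 to 0.847, counting error only). For the 0 counts in controls, a floor of 3 counts over the group was set, or 0.0499 CPM. The pooled treated level was 12.8-fold above that floor, and the low end of the treated interval 9.43-fold above it. Neither fold is a strict lower bound, since the exact 95% interval of the control counts reaches 0.0614 CPM. The spread among treated libraries (coefficient of variation 77.9%) is not covered either. The fold of the pooled level over the floor was 8.11 without control library 2 and 8.39 without β-alanine library 2. It was 8.24 with all libraries thinned to the smallest total.

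**Figure D1:**
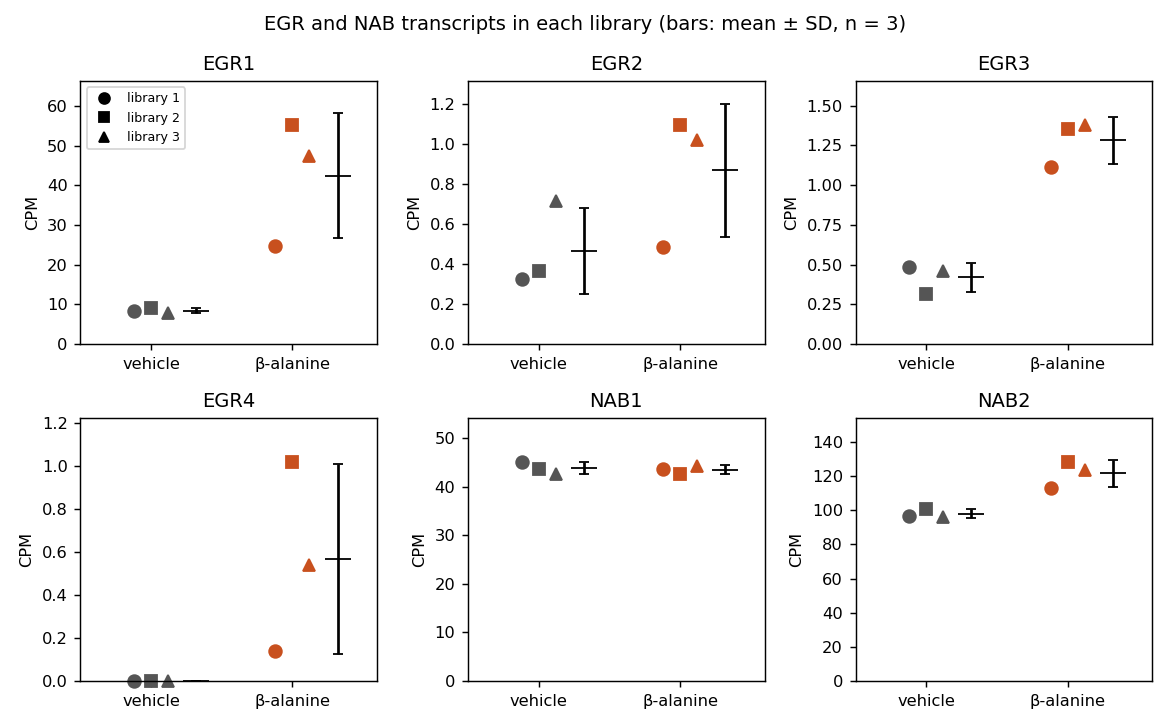
CPM of the 4 EGR factors and 2 NAB corepressors in each library, with vehicle in grey and β-alanine in orange, symbols for library number, and bars for mean ± SD (n = 3). EGR1, EGR3, EGR4 and NAB2 show no overlap between groups, while EGR2 and NAB1 do.

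NAB2, the corepressor that EGR factors are known to induce, was higher after β-alanine by a smaller margin than the factors. It lies on chromosome 12 from 57089114 to 57095476. Its levels were 113, 129 and 123 CPM in β-alanine libraries 1, 2 and 3, and 96.5, 101 and 96.2 CPM in control libraries 1, 2 and 3. No treated library reached down to a control, with means of 122 ± 7.88 and 97.9 ± 2.61 CPM (SD, n = 3 per group). The log2 fold change was 0.32 ± 0.05 (SE), and the ratio of the means was 1.24. NAB2 stood at place 1750 of 17331 in the ranking. The median absolute log2 change of all called genes was 0.28, so a change of this size was common. Whether the EGR factors had a part in it was not tested. NAB2 shares 69 exonic bases, 2.29% of its exon length, with STAT6 on the opposite strand, and whether the authors counted by strand is not stated. STAT6 stood at 94.7 ± 8.48 and 88.3 ± 4.11 CPM (SD, n = 3 per group), and its log2 fold change of 0.11 ± 0.06 (SE) did not pass edgeR's quasi-likelihood test.

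NAB1, the constitutive relative, lies on chromosome 2 from 190648895 to 190692766 and showed overlapping groups. Its levels were 43.6, 42.6 and 44.3 CPM in β-alanine libraries 1, 2 and 3, and 45.1, 43.7 and 42.7 CPM in control libraries 1, 2 and 3. The log2 fold change was -0.01 ± 0.05 (SE), and 0.01 when libraries were scaled by their totals alone. NAB1 shares 10 exonic bases with AC006460.2 and 186 with AC006460.1, both on the opposite strand. EGR3 likewise shares 164 exonic bases, 3.38% of its exon length, with AC055854.1 on the opposite strand, so these counts are uncertain by the reads of those stretches.

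**Figure D2:**
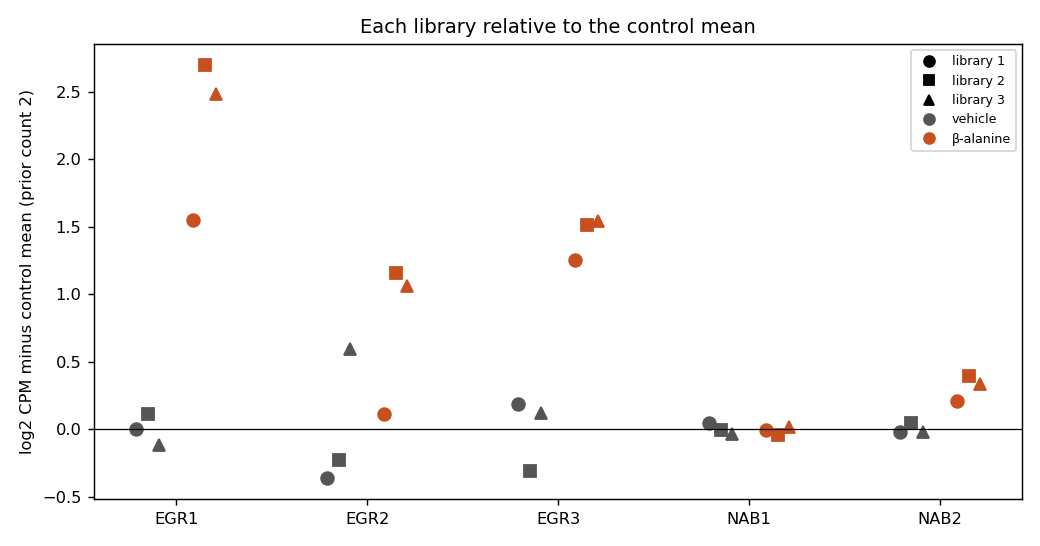
Log2 CPM of each library minus the mean of the 3 controls (prior count of 2) for the 5 tested genes, with symbols for library number. β-alanine library 1 (orange circles) is the lowest treated library for EGR1, EGR2, EGR3 and NAB2.

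Of the 6 genes, 4 lay higher in every β-alanine library than in every control (EGR1, EGR3, EGR4 and NAB2). EGR4 was not tested, and 3 of the 5 tested genes lay higher in this way. Among the 17331 tested genes, 39.1% had groups that did not overlap in either direction and 19.9% were higher in this way. Of the 5 tested, 4 were past the threshold as higher in edgeR's quasi-likelihood test (EGR1, EGR2, EGR3 and NAB2) and none as lower, where 14.1% of tested genes were called higher and 13.8% lower. Since the group was proposed from this contrast, nothing is read from these counts. EGR2 was called in no more than 5 of the 13 alternatives that gave it an adjusted p. EGR1 missed the threshold without β-alanine library 3 or without any 1 of the 3 controls.

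**Figure D3:**
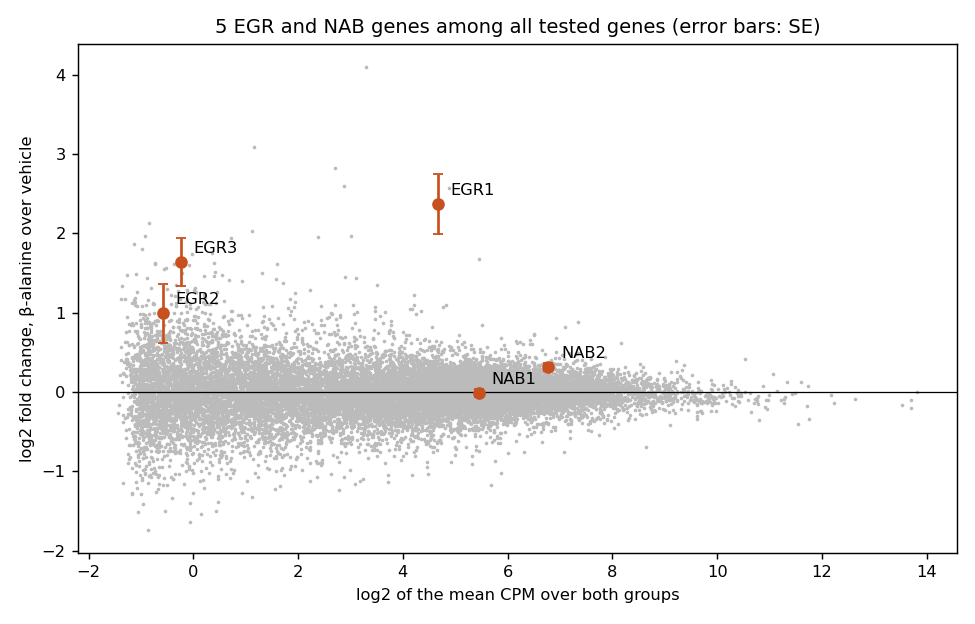
Log2 fold change of β-alanine over vehicle against the log2 of the mean CPM for all 17331 tested genes (grey) and the 5 tested EGR and NAB genes (orange, bars are SE). EGR1 sits at 2.37 with a mid-range level, EGR2 and EGR3 at the low end of expression, and NAB1 on the line at 0.

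Levels between genes were compared per length, as CPM per kilobase of exon. In controls the order from the highest was NAB2 at 32.5 ± 0.868, NAB1 at 8.97 ± 0.254, EGR1 at 2.69 ± 0.215, EGR2 at 0.127 ± 0.0581 and EGR3 at 0.0868 ± 0.0186 CPM per kilobase (SD, n = 3), with EGR4 at 0. After β-alanine EGR1 stood at 13.5 ± 5.04 CPM per kilobase, above the 8.90 ± 0.172 of NAB1 on average. The 2 genes overlapped, because EGR1 in β-alanine library 1 was at 7.90 and NAB1 at 8.92 CPM per kilobase. EGR3 (0.264 ± 0.0299), EGR4 (0.238 ± 0.186) and EGR2 (0.235 ± 0.0897 CPM per kilobase) did not differ beyond their spread after β-alanine, and neither did EGR2 and EGR3 in controls.

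Ratios of counts within a library do not depend on scaling, and they give the balance between the main factor and its corepressors. There were 0.219, 0.430 and 0.384 EGR1 counts for each NAB2 count in β-alanine libraries 1, 2 and 3. Control libraries 1, 2 and 3 had 0.0874, 0.0902 and 0.0806. The treated ratio was higher in every library, with a mean 4.00 times that of controls. For EGR1 over NAB1 the ratios were 0.569, 1.30 and 1.07 after β-alanine and 0.187, 0.208 and 0.182 in controls. NAB2 over NAB1 ranged from 2.59 to 3.01 after β-alanine and from 2.14 to 2.31 in controls, so the corepressor pair also differed in balance without overlap between groups. These ratios are built from the same counts as above and add no independent sample.

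**Figure D4:**
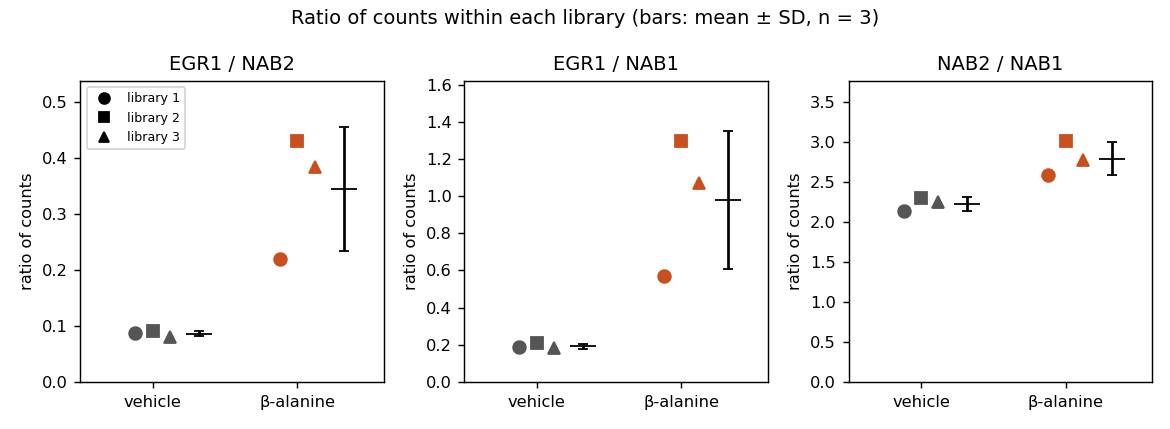
Ratio of counts within each library for EGR1 over NAB2, EGR1 over NAB1 and NAB2 over NAB1, by treatment, with bars for mean ± SD (n = 3). All 3 ratios are higher in each β-alanine library than in any control, and β-alanine library 1 is the lowest treated one.

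The treated libraries were not alike. β-alanine library 1 held EGR1 at 0.483, EGR2 at 0.461 and EGR4 at 0.178 of the mean of libraries 2 and 3, while EGR3 was at 0.817, NAB2 at 0.898 and NAB1 at 1.00 of that mean. Its EGR1 level was still 2.72 times the highest control. The same library was the shallowest, and by chi-square per gene it differed from β-alanine libraries 2 and 3 by 4.23 and 4.86 and from the controls by 4.69 to 5.58. Libraries 2 and 3 differed from each other by 2.20 and from the controls by 12.05 to 15.87. This statistic was taken on raw counts and grows with depth. Values of the shallowest library are therefore not directly comparable with those of libraries 2 and 3. Leaving out β-alanine library 1 gave log2 fold changes of 2.59 for EGR1, 1.16 for EGR2, 1.70 for EGR3 and 0.36 for NAB2. The coefficient of variation of EGR1 was 37.2% after β-alanine and 7.99% in controls.

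Genes with the most similar profile were sought among tested genes with an average log2 CPM of at least 1, by the root mean square difference of log2 CPM over the 6 libraries, each gene centred on its control mean. The nearest 3 to EGR1 were the orphan nuclear receptors NR4A2 (0.18) and NR4A1 (0.35) and GREB1 (0.35). NR4A2 stood at 8.01, 15.2 and 14.5 CPM in β-alanine libraries 1, 2 and 3 against 2.05 to 2.19 CPM in controls. Its low first library is part of the pattern by which the search chose it. Nearest to EGR3 were PRRG2 (0.15), STXBP5L (0.19) and the small MAF factor MAFF (0.21), and nearest to EGR2 were TSACC, MAML2 and NMI (0.22 to 0.26). NAB2 was nearest to WBP2, PNO1 and RBM7 (0.01 to 0.02), and NAB1 to CCDC25, GTF3C1 and FUT8 (each 0.02). These distances describe 6 libraries that share depth and treatment, and small distances are common among genes near 0.

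Other genes of the pathway were taken from 12 lists of 140 distinct genes, of which 130 were tested. They are set beside the 27.9% of all tested genes called in either direction by the Benjamini-Hochberg adjusted quasi-likelihood test of edgeR. All lists were chosen with earlier results of these data known, so their shares are a description. Of the 130, 37 rose and 14 fell (39.2%). The median log2 change over all tested genes was 0.00.

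Among factors that drive EGR promoters, the list was split in direction. Of 16 SRF and CREB regulators tested, 4 rose and 4 fell, with a median log2 change of 0.08. CRTC2, a CREB coactivator, rose from 97.7 ± 3.74 to 126 ± 5.32 CPM (SD, n = 3 in each group), and the CREB relative ATF1 rose by a log2 of 0.32 ± 0.05 (SE). CREB1 itself changed by -0.42 ± 0.06 and the Mediator subunit MED23, which serves ELK1, by -0.46 ± 0.07. SRF lay at 100.8, 100.1 and 93.4 CPM after β-alanine and at 98.3, 94.4 and 84.0 CPM in controls and was not called. Without β-alanine library 2 or control library 2, only 2 rose and 2 fell, and without β-alanine library 3 or control library 1, 2 rose.

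In the ERK cascade, the kinase chain upstream of SRF partners, 7 of 17 genes rose and 2 fell, with a median log2 change of 0.11. The adaptor GRB2 rose from 512 ± 10.9 to 670 ± 16.0 CPM (SD, n = 3 in each group). The kinase RSK2, encoded by RPS6KA3, rose by a log2 of 0.34 ± 0.06, the adaptor SHC1 by 0.28 ± 0.05 and NRAS by 0.19 ± 0.04 (SE). Without control library 2, 4 genes of the cascade rose, and none fell when β-alanine library 2 or 3 or any control was left out. Of 10 ERK feedback genes, 4 rose and none fell: ETV4 by 0.76 ± 0.08, SPRY4 by 0.43 ± 0.07, SPRY2 by 1.28 ± 0.29 and the ERK phosphatase gene DUSP5 by 0.78 ± 0.21. SPRY2 rested on 14, 15 and 7 counts in control libraries 1, 2 and 3. The other 6 genes of the list were not called. Among them, DUSP6, the most abundant of the list, changed by 0.08 ± 0.03 (SE) from a control mean of 458 CPM. DUSP5 missed the threshold on leaving out β-alanine library 3 and, separately, control library 2 (edgeR adjusted p = 0.0749 and 0.0607).

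Immediate-early genes that share these inputs were also higher. All 3 NR4A receptors rose, with log2 changes of 2.57 ± 0.11 for NR4A1, 2.60 ± 0.26 for NR4A2 and 4.09 ± 0.60 for NR4A3 (SE), the last not called when any 1 control was left out (edgeR adjusted p between 0.0531 and 0.0578). Of 7 AP-1 subunits 6 rose, among them FOS by 2.03 ± 0.23, FOSB by 1.37 ± 0.22, FOSL2 by 0.87 ± 0.13 and JUN by 0.39 ± 0.09, with JUND at -0.01 ± 0.18. The mean of the AP-1 list relative to controls (log2) was 0.68, 1.05 and 0.98 in β-alanine libraries 1, 2 and 3, with library 1 lowest as for EGR1. Library 1 was also lowest for the ERK feedback list (0.29, 0.45 and 0.49), but not for the ERK cascade list (0.11, 0.12 and 0.09).

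The EGR1 target list was split evenly. Of 22 tested genes, 4 rose and 4 fell, with a median log2 change of -0.04, and PDGFB and FLT1 were among the 3 too low to test. GADD45B, a growth arrest gene, rose from 16.0 ± 0.870 to 24.1 ± 3.61 CPM (SD, n = 3 in each group), and THBS1, which encodes thrombospondin, rose by a log2 of 0.73 ± 0.13 (SE). Among those that fell, the adhesion receptor gene CD44 changed by -0.21 ± 0.04 (SE). Without control library 2, 2 targets fell. Of 4 tested EGR2 target genes of myelin, none was called, and by edgeR's unadjusted p 0 were under 0.05.

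Neuronal activity genes, several of which EGR factors bind, had 4 of 7 tested members rising and none falling. SYN1, the synapsin gene, rose from 9.61 ± 0.912 to 17.6 ± 1.38 CPM (SD, n = 3 in each group). HOMER1, a scaffold of the synapse, rose by a log2 of 0.37 ± 0.07, NPAS4 by 1.61 ± 0.34 and the neurotrophin receptor NGFR by 0.69 ± 0.16 (SE). NPAS4 rested on 12, 31 and 51 counts after β-alanine and 5, 12 and 7 in controls. The groups overlapped for NGFR, with β-alanine library 1 at 6.96 CPM and control library 2 at 7.28 CPM. ARC, an activity-dependent gene of dendrites and a textbook EGR target, lay at 1.74, 1.35 and 1.38 CPM after β-alanine and 1.84, 2.09 and 1.58 CPM in controls, and was not called. Of 10 EGR2 and EGR3 targets of lymphocytes, only the ubiquitin ligase ITCH rose, by 0.19 ± 0.05, and none fell.

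NAB2 is known to recruit the NuRD complex through CHD4. Of 15 NuRD subunits, 1 rose and 1 fell, with a median log2 change of -0.07. CHD5, a neural helicase subunit, changed by -0.32 ± 0.06 and CHD3 by 0.14 ± 0.04 (SE). CHD4, named here for its role, was at -0.15 ± 0.08 and was not called. Without β-alanine library 1, 6 NuRD genes fell, without β-alanine library 3, 2 fell and none rose, and without control library 2 none rose.

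**Figure D5:**
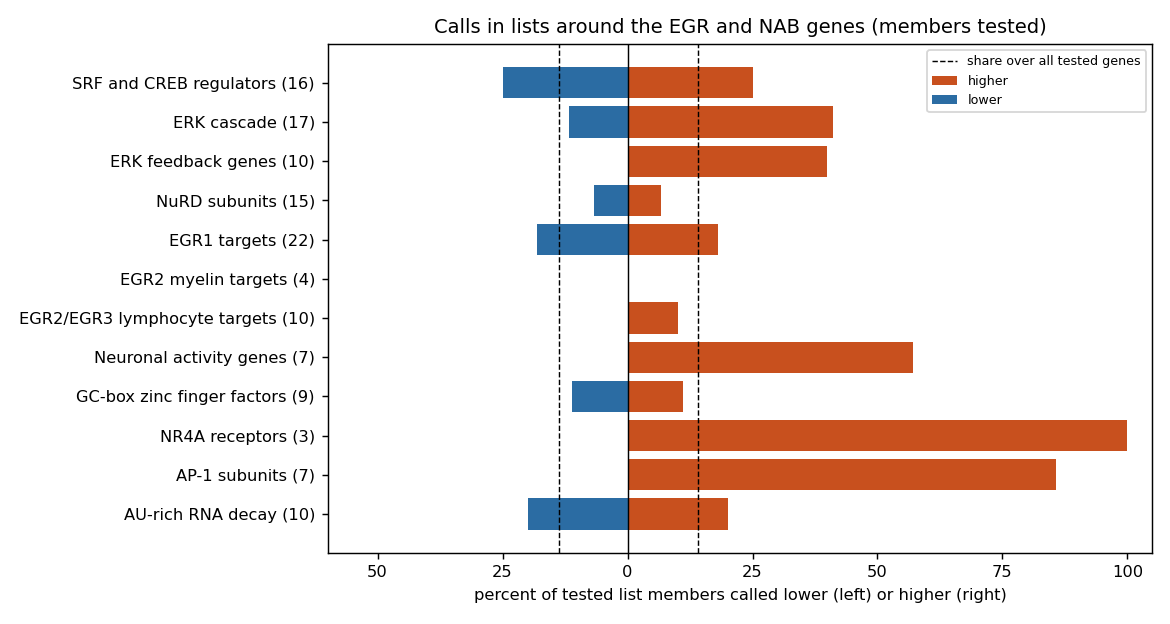
Percent of tested members of each list called higher (orange, right) or lower (blue, left) in edgeR's quasi-likelihood test, with dashed lines at the shares over all tested genes (14.1% and 13.8%) and the number tested in brackets. NR4A, AP-1, ERK feedback and neuronal activity genes were called higher and not lower, as was the 1 called lymphocyte target of 10. The SRF and CREB regulators, EGR1 targets, NuRD subunits, GC-box factors and AU-rich RNA decay list had equal numbers on each side.

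Of the 49 genes outside the family named by rule, 18 share exonic bases with another gene in GENCODE release 29, among them NR4A1, SYN1 (with ARAF), ETV4 (with DHX8), CD44, CREB1, SHC1, THBS1 and NGFR. Their counts are uncertain to that extent, for the same reason of strand.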

How the data were processed

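The deposited values are raw counts, 1 column per library, made by the authors with featureCounts 2.0.1 after trimming with Trimmomatic 0.39 and alignment to GRCh38 with STAR 2.7.3a, per the submitters' processing notes, which also list bcl2fastq and DESeq2. Settings, annotation and strand use are not given in the sources read. Genes were filtered with filterByExpr and scaled by TMM, CPM uses the scaled totals, and edgeR 4.0.16 (quasi-likelihood, robust, no covariate, two-sided, Benjamini-Hochberg, threshold 0.05) in R 4.3.3 was fitted on all 6 libraries. SE is the log2 fold change over the square root of F. The fit was checked on simulated counts drawn with a single common dispersion for all genes. That setting does not carry the wider spread of EGR1 and EGR2 among the β-alanine libraries. List symbols with no row in the table were not analysed here. Values of some list and marker genes are not reported here. Exon lengths and overlaps came from GENCODE release 29, positions from RefSeq. The 6 genes and all lists were chosen with earlier results of these data known. Named by rule were the 6 genes, up to 4 called members per list with the smallest p, and the 3 nearest profiles per tested gene. SRF, DUSP6, JUND, ARC, CHD4, WT1, STAT6, PDGFB, FLT1 and the cell type markers given were named outside it, after values were seen. Alternatives were other scalings and filters, DESeq2 1.42.0, limma-voom 3.58.1, a replicate block, no robust shrinkage, thinning and leaving out each library.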

Additional observations from a re-analysis of the deposited data

How the results depend on the processing

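The log2 fold changes of EGR1, EGR2, EGR3 and NAB2 stayed above 0 under every alternative run, except that EGR2 was too low to be fitted with a CPM of at least 1 in 3 libraries. They lay between 2.15 and 2.59 for EGR1, 0.81 and 1.41 for EGR2, 1.46 and 1.75 for EGR3 and 0.28 and 0.36 for NAB2. NAB1 ran from -0.03 to 0.01 when each library was left out in turn, and thinning to the smallest library gave 0.053. Over the left-out libraries, the EGR1 to NAB2 ratio between groups ran from 3.51 to 4.73. The fold of pooled EGR4 over its floor of 3 counts ran from 8.11 to 15.1. Leaving out a control library makes the total behind the floor smaller. Leaving out a β-alanine library instead changes the pooled EGR4 level, which rests on 2, 28 and 18 counts in β-alanine libraries 1, 2 and 3. DESeq2 gave EGR2 and EGR3 no adjusted p. With each library left out in turn, genes called higher numbered 1501 to 3204 and lower 1473 to 3294, and genes of the 12 lists 28 to 41 higher and 5 to 26 lower; the lowest counts came without β-alanine library 2 or control library 2 and the highest without β-alanine library 1. Library totals gave 2745 higher and 2141 lower. With a replicate block, 2564 genes were called higher and 2608 lower, and EGR2 was not called. Deviations of same-numbered libraries correlated at 0.05, 0.00 and 0.07. β-alanine library 2 correlated slightly better with control library 1 (0.01) than with its own number. With 3 libraries per group, correlations this small cannot decide whether the numbers pair the samples. Depth limits EGR2, EGR3 and EGR4, which had at most 46 counts in a library.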

Other observations

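2 further lists bear on short-lived RNAs and GC-rich sites. Of 10 proteins that bind AU-rich elements or act in the decay of such RNAs, 2 rose and 2 fell in edgeR's quasi-likelihood test, against 27.9% of all tested genes called. ZFP36, an RNA-binding protein that is itself an immediate-early product, rose from 18.3 ± 1.41 to 38.4 ± 8.10 CPM (SD, n = 3 in each group), a log2 change of 1.10 ± 0.16 (SE), and its relative ZFP36L1 rose by 0.72 ± 0.09. KHSRP and HNRNPD, which also bind AU-rich elements, changed by -0.17 ± 0.04 and -0.16 ± 0.04, and neither was called without control library 2 (edgeR adjusted p = 0.0604 and 0.0913). For HNRNPD the edgeR adjusted p was 0.0512 and 0.072 on leaving out β-alanine libraries 2 and 3. Of 9 other zinc finger factors of GC-rich sites, SP4 rose by 0.28 ± 0.07 and MAZ changed by -0.24 ± 0.08, the latter not called after leaving out any of 4 libraries (edgeR adjusted p between 0.0658 and 0.138 without β-alanine libraries 2 and 3 and control libraries 1 and 2). WT1, whose zinc fingers bind sites close to those of EGR1, was at 7.38, 7.51 and 6.68 CPM after β-alanine and 6.97, 7.55 and 7.04 CPM in controls, and was not called.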
